A study of Mus musculus with 4 samples.

Results

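The genes described here are 44 genes of the cell cycle and DNA replication, taken by symbol from a fixed list out of 39179 genes counted in mouse skin. They comprise 18 replication (S phase) genes, 22 mitotic genes and 4 cyclins that act in G1 and at S phase entry. The study sequenced RNA from whole skin of mice on the C57BL/6 background, with 2 libraries from wild-type (WT) animals and 2 from lesional skin of animals carrying a knockout of Itch (Itch KO). Itch encodes a ubiquitin ligase. By the labels, the phenotype is inflammation in WT and knockout samples alike, and they give no age, sex, allele or treatment. Nothing in them ties the libraries of a group to separate mice, and the p-values therefore reflect only how far these libraries differ, which may be technical. All 44 genes passed the filter on low counts and entered the test.

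In a dividing cell, the licensing factors Cdc6 and Cdt1 load the Mcm2 to Mcm7 helicase onto origins in G1. Origins fire in S phase with Cdc45, the GINS complex and Mcm10, and a transcription programme of E2F factors, released from Rb family proteins by cyclin-CDK activity, supplies much of this machinery. Mitotic genes are transcribed later, in G2, through the MuvB complex with B-Myb and FoxM1, often at a promoter element called the CHR with CCAAT boxes that bind NF-Y. In skin, the dividing cells are mainly basal keratinocytes and, in growing (anagen) hair follicles, the matrix cells that build the hair shaft, with dividing immune and stromal cells where the tissue is inflamed.

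The promoters of replication and mitotic genes carried different letters, and 4 that hold the motifs searched are shown as examples. They are not typical of their groups. Cdk1 was the only mitotic gene with an E2F-type match. Mcm6, with 3 E2F-type matches, and Top2a, with 4 CHR matches, had the most of these in their groups. RefSeq promoter windows on GRCm38.p6, 300 bases from 250 before to 50 after each start, were matched for 33 of the 44 genes. The unmatched genes were Mcm4, Gins2, Pole, Ccna2, Aurkb, Kif20a, Tpx2, Foxm1, Ccne2, Ccnd1 and Ccnd2. Each sequence below runs 5′ to 3′ on the strand of its gene and stops before the start. Mcm5 lies at chr8:75109259-75109508 (plus strand), Mcm6 at chr1:128359706-128359955 (minus), Cdk1 at chr10:69352939-69353162 (minus) and Top2a at chr11:99024190-99024439 (minus). Capitals mark E2F-type motifs, CHR motifs and CCAAT boxes on either strand. In Mcm5, and again in Mcm6, a pair of E2F-type matches on opposite strands overlap and form 1 run of capitals.
Mcm5: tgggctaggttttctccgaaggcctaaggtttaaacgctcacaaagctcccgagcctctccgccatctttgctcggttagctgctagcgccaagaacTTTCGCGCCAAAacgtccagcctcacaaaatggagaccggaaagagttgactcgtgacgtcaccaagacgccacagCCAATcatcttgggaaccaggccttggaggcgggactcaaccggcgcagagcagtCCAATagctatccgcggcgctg
Mcm6: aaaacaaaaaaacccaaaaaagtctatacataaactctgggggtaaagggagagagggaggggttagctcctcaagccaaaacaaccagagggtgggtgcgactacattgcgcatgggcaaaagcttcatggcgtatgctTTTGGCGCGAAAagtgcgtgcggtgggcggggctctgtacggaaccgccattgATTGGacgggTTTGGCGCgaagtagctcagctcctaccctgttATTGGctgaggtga
Cdk1: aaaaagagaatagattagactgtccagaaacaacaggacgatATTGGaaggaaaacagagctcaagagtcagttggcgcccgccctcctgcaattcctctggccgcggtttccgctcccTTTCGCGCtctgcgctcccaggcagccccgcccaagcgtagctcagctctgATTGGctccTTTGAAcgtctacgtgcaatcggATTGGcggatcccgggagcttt
Top2a: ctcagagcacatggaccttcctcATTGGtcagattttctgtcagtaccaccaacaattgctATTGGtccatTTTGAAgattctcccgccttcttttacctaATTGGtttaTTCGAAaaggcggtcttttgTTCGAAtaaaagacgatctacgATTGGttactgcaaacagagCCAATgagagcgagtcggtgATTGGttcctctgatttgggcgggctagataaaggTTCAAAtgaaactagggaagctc

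The E2F-type letters searched were TTTGGCGC, TTTCCCGC, TTTCGCGC and TTTGCCGC, the CHR letters were TTTGAA and TTCGAA, and the CCAAT box was CCAAT, each on both strands. An E2F-type match lay in 7 of 16 replication windows (43.8%), in 1 of 17 mitotic windows (5.88%, Cdk1) and in 2.26% of all 32851 windows. The 7 replication genes were Mcm3, Mcm5, Mcm6, Mcm7, Cdc6, Cdt1 and Pola1. The 33 matched genes had 34 windows, the additional window belonging to Mcm7, so the shares here are of windows and not of genes. Only 1 of the Mcm7 windows held an E2F-type match. A CHR match lay in 14 of 17 mitotic windows (82.4%), in 3 of 16 replication windows (18.8%) and in 19.2% of all windows. CCAAT lay in 16 of 17 mitotic windows (94.1%), in 12 of 16 replication windows and in 37.4% of all windows. Top2a, which encodes the topoisomerase that untangles chromosomes, had 4 CHR matches and 6 CCAAT matches in the stretch shown, and Mcm5 had neither CHR motif there. These matches describe the letters in the windows and are not evidence of binding.

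The libraries had between 15144957 and 16008351 gene reads. Itch itself stood at 96.7 and 103.1 CPM (counts scaled to library size) in WT (replicate 1 first, here and throughout) and at 11.7 in each knockout library, so every library lay on the side of its label. Xist, transcribed from the inactive X, stood at 1055 and 631 CPM in WT, against 0.947 and 0.892 CPM in Itch KO skin, while the Y-linked Ddx3y was at 0.0667 and 0.126 CPM in WT, against 69.1 and 48.0 CPM in Itch KO skin. By these transcripts the genotypes also differed in sex, which cannot be told apart from genotype here, and 1 of the 44 genes, Pola1, lies on the X chromosome. The WT libraries were less alike (Pearson r of log2 levels across genes 0.923, genes not being independent replicates) than the knockout libraries (0.983).

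The cell cycle genes did not separate the genotypes as a whole: WT replicate 1 held low levels, and WT replicate 2 held levels close to those of both knockout libraries. The 44 genes summed to 1238 and 2340 CPM in WT, against 2156 and 2320 CPM in Itch KO skin. WT replicate 1 was the lowest of the 4 libraries for 40 of 44 genes, where 34.1% of all 16651 tested genes had it lowest. The median gene of the 44 stood 2.02-fold higher in WT replicate 2 than in WT replicate 1, and over all tested genes that median was 0.949. Between the knockout libraries the median log2 difference of the 44 genes was 0.08, with a range from -0.30 to 0.39. The spread between the WT libraries was thus larger than that between the knockout libraries for this group. In whole skin, fewer cells of a type and less RNA per cell cannot be told apart.

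Of the 44 genes, 0 passed edgeR's quasi-likelihood test with Benjamini-Hochberg adjustment at 0.05, where the background was 0.00601% of tested genes (1 gene, the Y-linked Eif2s3y). Itch, with a log2 fold change of -3.09 (SE 0.16), did not pass either, at an adjusted p of 0.0509 in edgeR's quasi-likelihood test with Benjamini-Hochberg adjustment. At an unadjusted p under 0.05, 0 of the 44 were higher in the knockouts (background 12.0%) and 1, Cenpf, was lower (background 10.9%). DESeq2 and limma-voom also called 0 of the 44, where DESeq2 called 14.0% of all tested genes and limma-voom called 0 of them. The adjusted p of the 44 genes ran from 0.218 to 0.984 in edgeR with Benjamini-Hochberg adjustment, and their median standard error was 0.38 on the log2 scale. Both knockouts exceeded both WT libraries for 20 genes (background 31.2%) and below both for 3 genes (background 30.0%), namely Cenpf, Kif23 and Ccnd2. For the other 21 genes the groups overlapped. The strand setting of the counting is not given in the sources used here, and 12 of the 44 genes share exon bases with a gene on the opposite strand, so that their counts are uncertain: Gins2, Kif20a, Ccnd1, Ccnd2, Ccne2, Ube2c, Ccna2, Mcm7, Cdc45, Plk1, Pole and Cdc20. The median log2 fold change was 0.47 over the 44 genes and 0.01 over all tested genes.

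**Figure D1:**
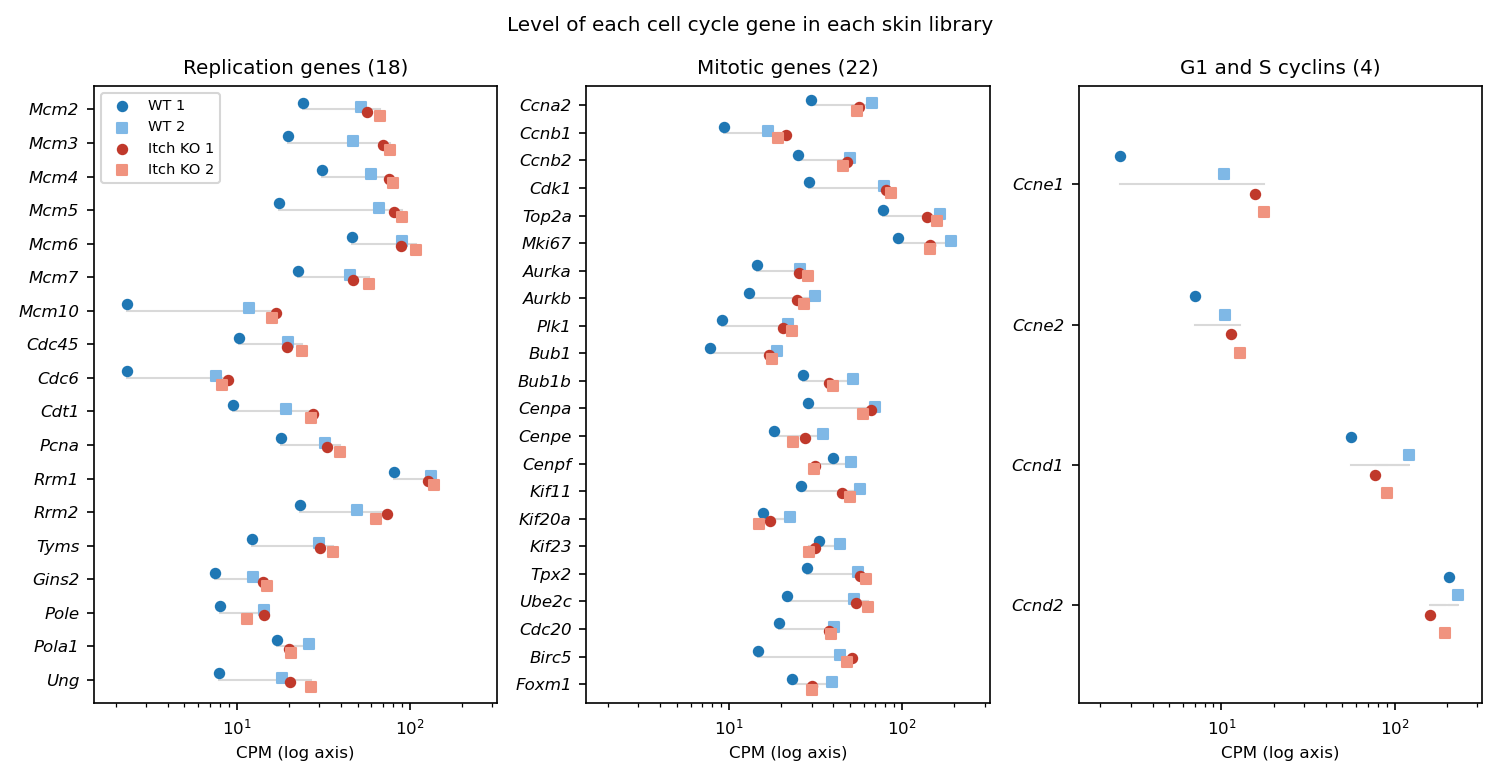
Level of each of the 44 genes in each library, in CPM on a log axis, with replication genes, mitotic genes and cyclins in separate panels and grey lines spanning the range of a gene. WT replicate 1 is the lowest point for 40 of 44 genes, and WT replicate 2 lies above both knockout libraries for 15 of 22 mitotic genes and below both for 13 of 18 replication genes.

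Replication genes had the more uniform pattern. WT replicate 1 was lowest for all 18 (34.1% of all tested genes), and both knockouts exceeded both WT libraries for 13 of them (31.2% of all tested genes), with a median log2 fold change of 0.67. The exceptions were Mcm6, Cdc45, Rrm1, Pole and Pola1, where the groups overlapped. The summed level of the 18 genes was 361.6 and 734.7 CPM in WT, against 827.7 and 908.4 CPM in Itch KO skin. None of them passed the test.

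Among the helicase subunits, Mcm2 to Mcm7 summed to 161.7 and 360.3 CPM in WT, against 419.9 and 482 CPM in Itch KO skin, with no overlap between the groups. Mcm3 (ENSMUSG00000041859, GRCm38 chromosome 1, 20802968 to 20820312, minus strand) stood at 19.9 and 46.8 CPM in WT, against 70.1 and 76.7 CPM in Itch KO skin. Its log2 fold change was 1.14 (SE 0.44), with an adjusted p of 0.230 from edgeR's quasi-likelihood test with Benjamini-Hochberg adjustment. Both knockout levels were higher than both WT levels, and the gap between the WT libraries was wider than that between the knockouts. Mcm5 (ENSMUSG00000005410, chromosome 8, 75109569 to 75128439, plus strand) had 17.6 and 66.5 CPM in WT, against 80.8 and 90.9 CPM in Itch KO skin, a log2 fold change of 1.03 (SE 0.66). WT replicate 1 stood apart from the other 3 libraries, and Mcm5 was 3.78-fold higher in WT replicate 2 than in WT replicate 1. Mcm4 had 31.0 and 59.6 CPM in WT, against 76.4 and 79.7 CPM in Itch KO skin (log2 fold change 0.78, SE 0.35). Mcm2 had 24.3 and 52.5 CPM in WT, against 56.8 and 67.2 CPM in Itch KO skin, with WT replicate 2 close to knockout replicate 1. Mcm7, which shares 385 exon bases with genes on the opposite strand, had 22.5 and 45.1 CPM in WT, against 46.8 and 58.0 CPM in Itch KO skin. Mcm6 was the helicase subunit whose groups overlapped: it stood at 46.3 and 89.9 CPM in WT, against 89.1 and 109.5 CPM in Itch KO skin.

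The licensing and firing factors had lower levels and similar orders. Cdt1, which brings the helicase to origins, had 9.60 and 19.2 CPM in WT, against 27.8 and 27.0 CPM in Itch KO skin (log2 fold change 0.93, SE 0.39). Cdc6, the ATPase that loads the helicase, had 2.33 and 7.58 CPM in WT, against 8.97 and 8.22 CPM in Itch KO skin, counts of 35, 120, 142 and 129. Both factors were lowest in WT replicate 1, and for Cdc6 WT replicate 2 came near the knockouts. Mcm10, needed to activate the helicase, had 2.33 and 11.7 CPM in WT, against 17.0 and 15.99 CPM in Itch KO skin. Its log2 fold change of 1.23 (SE 0.79) had the largest error of the 44 genes, and it was 5.03-fold higher in WT replicate 2 than in WT replicate 1. Cdc45, part of the active helicase, had 10.4 and 19.8 CPM in WT, against 19.5 and 24.0 CPM in Itch KO skin, with overlapping groups. Gins2, a GINS subunit, had 7.47 and 12.4 CPM in WT, against 14.2 and 14.9 CPM in Itch KO skin, and it shares 2758 exon bases with Gse1 on the opposite strand.

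Of the synthesis enzymes, Rrm2, the regulated subunit of ribonucleotide reductase, had 23.2 and 49.9 CPM in WT, against 73.9 and 63.8 CPM in Itch KO skin (log2 fold change 0.91, SE 0.40). Rrm1, the large subunit of the same enzyme, had 81.2 and 132.6 CPM in WT, against 128 and 137.7 CPM in Itch KO skin. The subunits differed in that the groups were apart for Rrm2 and overlapped for Rrm1. Tyms, which makes thymidylate, had 12.3 and 30.1 CPM in WT, against 30.2 and 36.1 CPM in Itch KO skin. Pcna, the sliding clamp, had 18.1 and 32.3 CPM in WT, against 33.5 and 39.6 CPM in Itch KO skin. In both, WT replicate 2 and knockout replicate 1 were close. Ung, which removes uracil from DNA, had 7.87 and 18.2 CPM in WT, against 20.5 and 27.1 CPM in Itch KO skin (log2 fold change 0.86, SE 0.47). The catalytic polymerase subunits were the genes of this group with the smallest fold changes. Pole, of polymerase epsilon, had 8 and 14.4 CPM in WT, against 14.4 and 11.5 CPM in Itch KO skin. Pola1, of polymerase alpha, had 17.1 and 26.3 CPM in WT, against 20.02 and 20.6 CPM in Itch KO skin, so that both knockouts lay between the WT libraries.

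Mitotic genes followed the same library order for WT replicate 1, which was lowest for 19 of 22 (34.1% of all tested genes), but both knockout libraries were mostly below WT replicate 2. Their summed level was 604.7 and 1231 CPM in WT, against 1064 and 1096 CPM in Itch KO skin. Both knockouts exceeded both WT libraries for 5 genes (Ccnb1, Cdk1, Tpx2, Ube2c and Birc5), below both for 2 (Cenpf and Kif23), and between or across them for 15, where 31.2% of all tested genes were above and 30.0% below. Set against WT replicate 2 alone, both knockouts were lower for 15 of 22 mitotic genes and 1 of 18 replication genes (background 39.3%), and higher for 5 of 22 and 13 of 18 (background 42.1%). The median log2 fold change was 0.31, and none of the 22 passed the test.

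Cdk1 (ENSMUSG00000019942, chromosome 10, 69335146 to 69352938, minus strand), the kinase that drives entry into mitosis, had 29.0 and 78.8 CPM in WT, against 80.8 and 85.8 CPM in Itch KO skin. Its log2 fold change was 0.63 (SE 0.50), with an adjusted p of 0.485 from edgeR's quasi-likelihood test with Benjamini-Hochberg adjustment. WT replicate 2 was close to the knockouts, and WT replicate 1 stood apart. Its partner cyclins differed in order: Ccnb1 had 9.40 and 16.8 CPM in WT, against 21.5 and 19.2 CPM in Itch KO skin. Ccnb2 had 25 and 50.2 CPM in WT, against 48.3 and 45.4 CPM in Itch KO skin. Ccna2, of cyclin A, had 29.7 and 66.8 CPM in WT, against 56.1 and 54.9 CPM in Itch KO skin. For Ccnb2 and Ccna2 the knockouts thus lay between the WT libraries, whereas for Ccnb1 they lay above both.

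Mki67 (ENSMUSG00000031004, chromosome 7, 135689784 to 135716361, minus strand), the gene of the proliferation antigen Ki-67, had 94.4 and 192 CPM in WT and 144.6 CPM in each knockout library. Its log2 fold change was 0.01 (SE 0.37) with an adjusted p of 0.984 from edgeR's quasi-likelihood test with Benjamini-Hochberg adjustment, and the WT libraries, 2.03-fold apart, lay on either side of the knockouts. Top2a had 77.1 and 165.8 CPM in WT, against 138.9 and 159.7 CPM in Itch KO skin. Foxm1, a transcription factor of mitotic genes, had 23.3 and 39.3 CPM in WT, against 30.1 and 30.0 CPM in Itch KO skin. In all 3 genes the knockouts lay between the WT libraries.

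The mitotic kinases and their partners were all lowest in WT replicate 1. Aurka, of the spindle poles, had 14.5 and 25.9 CPM in WT, against 25.4 and 28.7 CPM in Itch KO skin. Aurkb, of the chromosomal passenger complex, had 13.1 and 31.6 CPM in WT, against 24.7 and 26.9 CPM in Itch KO skin. Birc5, survivin of the same complex, had 14.7 and 43.5 CPM in WT, against 51.4 and 48.2 CPM in Itch KO skin (log2 fold change 0.77, SE 0.54). Birc5 had the highest fold change of the 22 mitotic genes, and its groups were apart while those of Aurkb were not. Plk1, a kinase of centrosomes and kinetochores, had 9.13 and 21.9 CPM in WT, against 20.5 and 23.1 CPM in Itch KO skin. The checkpoint kinase genes Bub1 and Bub1b had 7.73 to 18.9 CPM and 26.9 to 52.3 CPM over the 4 libraries, each with its lowest and its highest level in WT. Tpx2, which activates Aurora A on the spindle, had 28.1 and 55.6 CPM in WT, against 56.8 and 61.9 CPM in Itch KO skin. The anaphase-promoting complex partners Cdc20 and Ube2c had 19.5 to 40.5 CPM and 21.7 to 63.4 CPM, lowest in WT replicate 1 in both, and highest in WT replicate 2 for Cdc20 and in knockout replicate 2 for Ube2c. Ube2c shares 592 exon bases with Tnnc2, a muscle gene on the opposite strand, which was counted at 0.533 CPM at most, also in WT replicate 1, where the summed skeletal muscle markers were highest. The count of Tnnc2 therefore does not show how many reads the overlap holds.

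Kinetochore and cytokinesis genes included those with the lowest fold changes of the 44. Cenpf (ENSMUSG00000026605, chromosome 1, 189640606 to 189688086, minus strand), a large kinetochore protein, had 39.7 and 50.8 CPM in WT, against 31.4 and 31.1 CPM in Itch KO skin. Its log2 fold change was -0.53 (SE 0.20), with an adjusted p of 0.218 from edgeR's quasi-likelihood test with Benjamini-Hochberg adjustment. Both knockouts lay below both WT libraries, and WT replicate 1 was not the lowest library, unlike for most of the 44 genes. Kif23, a kinesin of the central spindle, had 33.0 and 43.7 CPM in WT, against 31.3 and 28.9 CPM in Itch KO skin (log2 fold change -0.35, SE 0.22). Kif20a, another kinesin of the central spindle, had 15.8 and 22.5 CPM in WT, against 17.4 and 14.9 CPM in Itch KO skin, and it shares 1271 exon bases with Cdc23 on the opposite strand. By contrast, Cenpa, the histone of centromeres, had 28.7 and 69.3 CPM in WT, against 65.7 and 59.3 CPM in Itch KO skin. Kif11, which separates the spindle poles, had 26.0 and 57.2 CPM in WT, against 44.9 and 49.8 CPM in Itch KO skin. Cenpe, the kinesin of kinetochores, had 18.1 and 34.9 CPM in WT, against 27.7 and 23.6 CPM in Itch KO skin. In these last 3 genes both knockouts lay between the WT libraries.

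The cyclins of G1 and S phase entry had no common pattern. Ccne1 (ENSMUSG00000002068, chromosome 7, 38097984 to 38107534, minus strand), cyclin E1, which activates CDK2 at S phase entry, had 2.60 and 10.3 CPM in WT, against 15.5 and 17.7 CPM in Itch KO skin. Its log2 fold change of 1.36 (SE 0.69) was the highest of the 44 genes, with an adjusted p of 0.313 from edgeR's quasi-likelihood test with Benjamini-Hochberg adjustment, and it differed 3.98-fold between the WT libraries. Ccne2, cyclin E2, had 7 and 10.5 CPM in WT, against 11.3 and 12.7 CPM in Itch KO skin, with 609 exon bases shared with Ints8 on the opposite strand. Ccnd1, cyclin D1 of CDK4 and CDK6, had 56.0 and 121.3 CPM in WT, against 77.05 and 89.97 CPM in Itch KO skin, between the WT libraries. Ccnd2, cyclin D2, had 206.1 and 231.7 CPM in WT, against 160.1 and 195.5 CPM in Itch KO skin, below both WT libraries (log2 fold change -0.30, SE 0.18). Ccnd1 and Ccnd2 share 1100 and 740 exon bases with genes on the opposite strand.

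The fold changes depended on which WT library stood for WT. Against WT replicate 2 alone, with WT replicate 1 left out, 0 of the 44 genes passed edgeR's quasi-likelihood test with Benjamini-Hochberg adjustment, where 5.47% of tested genes passed as higher and 2.08% as lower. Their median log2 fold change was then 0.22 for replication genes and -0.15 for mitotic genes. Against WT replicate 1 alone, 33 of the 44 passed as higher (background 15.9%) and 0 as lower (background 15.7%), 16 of them replication genes, 16 mitotic genes and 1 a cyclin. The medians were then 1.34 for replication genes and 0.93 for mitotic genes. The genes that did not pass were Pole, Pola1, Bub1b, Cenpe, Cenpf, Kif20a, Kif23, Foxm1, Ccne2, Ccnd1 and Ccnd2. In both of these fits the spread came from the knockout libraries, and the single WT library was taken to vary as they do. Leaving out knockout replicate 1 gave medians of 0.75 for replication genes and 0.25 for mitotic genes. Leaving out knockout replicate 2 gave 0.54 and 0.27.

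**Figure D2:**
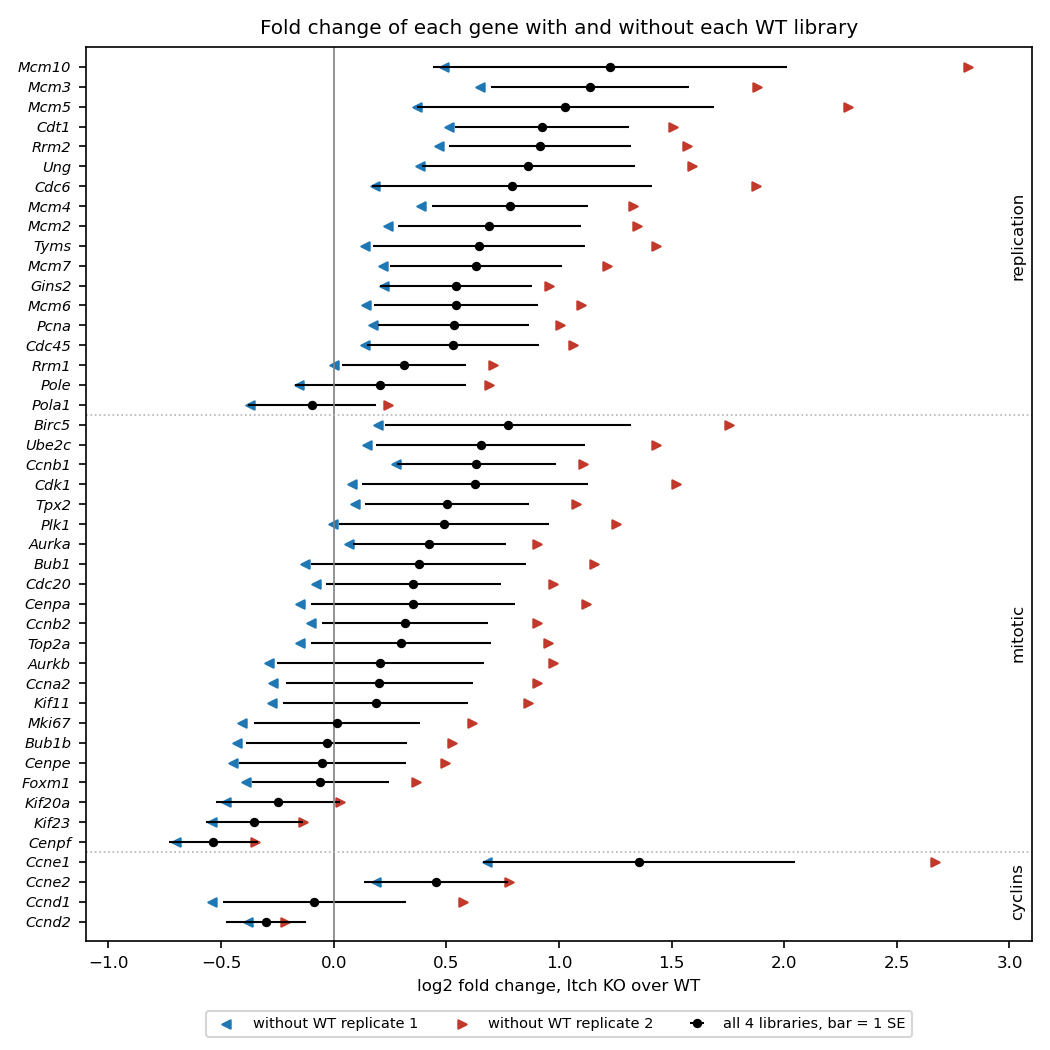
Log2 fold change of each gene, Itch KO over WT, with all 4 libraries (black, bars of 1 SE), without WT replicate 1 (blue, left-pointing) and without WT replicate 2 (red, right-pointing). The blue points of mitotic genes have a median of -0.15 and the red points one of 0.93, and the replication genes have the higher median in each fit.

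Replication genes were higher relative to mitotic genes in both knockout libraries than in either WT library. The mean log2(CPM + 1) of the 18 replication genes was 3.96 and 5.02 in WT, against 5.19 and 5.29 in Itch KO skin. That of the 22 mitotic genes was 4.57 and 5.55 in WT, against 5.37 and 5.38 in Itch KO skin. The replication mean minus the mitotic mean was -0.61 and -0.54 for WT, against -0.18 and -0.10 for Itch KO (replicate 1 first). The WT libraries were close in this difference although they lay far apart in each mean, and the groups did not overlap. The pooled SD between replicates was 0.06 for the difference, against 0.53 and 0.49 for the replication and mitotic means. These are descriptions of a chosen gene list, and no p is given for them.

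Other genes of the same phases, from lists of the pathway that exclude the 44, had the same order. The difference between 44 other replication genes and 60 other mitotic genes was -0.17 and -0.14 in WT, against 0.08 and 0.19 in Itch KO skin. Of the other replication genes, 22 of 44 had both knockouts above both WT libraries and 3 had both below (31.2% and 30.0% of all tested genes), with a median log2 fold change of 0.46. Of the other mitotic genes, 11 of 60 had both knockouts above and 10 both below, both smaller shares than over all tested genes, with a median of 0.19. These promoters also differed: an E2F-type match lay in 27.3% of the other replication windows and 8.33% of the other mitotic windows, and a CHR match in 15.9% and 68.3%.

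**Figure D3:**
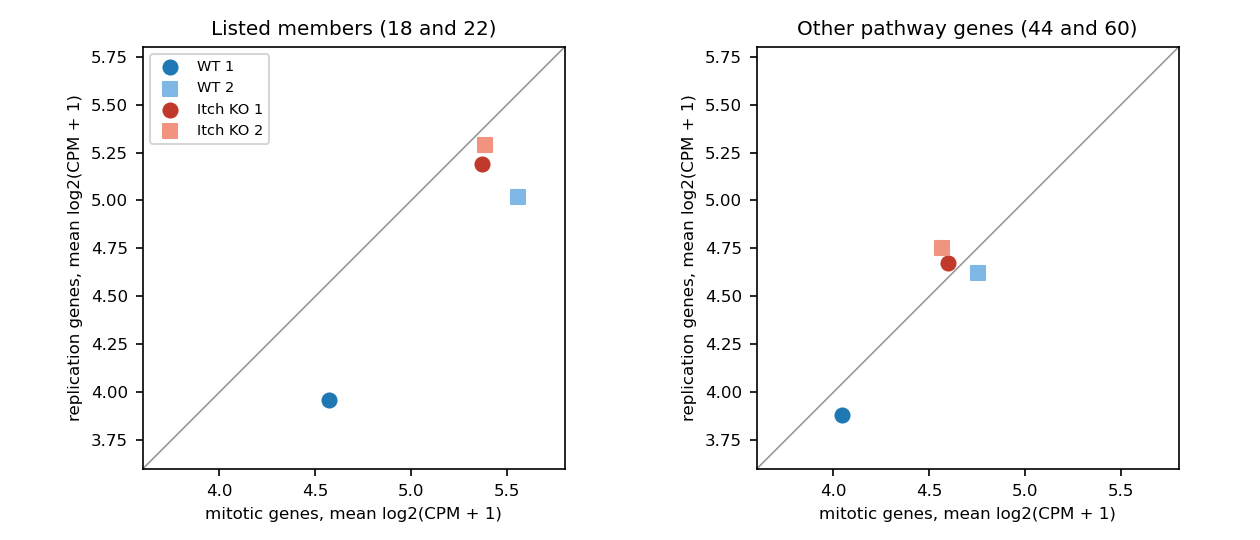
Mean log2(CPM + 1) of replication genes (vertical) against that of mitotic genes (horizontal), 1 point for each library, for the 18 and 22 listed genes (left) and for 44 and 60 other genes of the same phases (right), with the line of equal means. Both knockout points lie higher relative to the line than both WT points: the vertical minus the horizontal value is -0.61 and -0.54 in the WT libraries and -0.18 and -0.10 in the knockout libraries of the left panel, and on the right it is -0.17 and -0.14 against 0.08 and 0.19.

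Of 143 other cell cycle genes tested, 0 passed edgeR's quasi-likelihood test with Benjamini-Hochberg adjustment. At an unadjusted p under 0.05, 4 were higher (Rfc2, Ccnd3, Cdkn1c and E2f7) and 7 lower in the knockouts, shares of the 143 below the 12.0% and 10.9% of all tested genes. With limma-voom 0 were called, as over all tested genes. DESeq2 called 5 (background 14.0%), with Ccnd3 and Cdkn1c higher and Ttk, Aspm and Cdkn2c lower. Without WT replicate 1, edgeR called 2 higher (background 5.47%) and 1 lower (2.08%), and without WT replicate 2 it called 62 higher (15.9%) and 8 lower (15.7%). The 3 replication genes with the smallest p were Rfc2, of the clamp loader, Rpa2, of the single-strand binding protein, and Prim2, of primase. Rfc2 had 31.8 and 48.8 CPM in WT, against 65.2 and 65.5 CPM in Itch KO skin, a log2 fold change of 0.70 (SE 0.25). Rpa2 had 22.9 and 34.0 CPM in WT, against 41.9 and 49.9 CPM in Itch KO skin, and Prim2 had 9.67 and 16.6 against 22.5 and 22.05 CPM. In all 3 the knockouts were above both WT libraries. The 3 mitotic genes with the smallest p were Ttk, a checkpoint kinase, Aspm, of the spindle poles, and Espl1, separase. Ttk had 48.8 and 36.4 CPM in WT, against 21.5 and 23.5 CPM in Itch KO skin, a log2 fold change of -0.92 (SE 0.22). Aspm had 31.3 and 35.5 CPM in WT, against 21.03 and 17.3 CPM in Itch KO skin, and Espl1 had 31.5 and 37.8 against 23.8 and 21.4 CPM. In all 3 the knockouts were below both WT libraries.

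Regulators of the cell cycle differed in their order. Ccnd3, cyclin D3, had 37.7 and 32.8 CPM in WT, against 57.5 and 72.7 CPM in Itch KO skin (log2 fold change 0.89, SE 0.20), with an adjusted p of 0.122 in edgeR's quasi-likelihood test with Benjamini-Hochberg adjustment and 0.0116 in DESeq2. Cdk4, its kinase partner, had 138.6 and 268.1 CPM in WT, against 250.4 and 309.7 CPM in Itch KO skin, and Wee1, the kinase that restrains Cdk1, had 16.3 and 12.2 against 11.3 and 11.2 CPM. Ccnd3 was higher in both knockouts than in both WT libraries, and Cdk4 had overlapping groups with WT replicate 1 lowest. E2f7, an E2F repressor, had 2.87 and 6.88 CPM in WT, against 13.3 and 14.5 CPM in Itch KO skin (log2 fold change 1.51, SE 0.49). Rb1, the retinoblastoma protein, had 76.7 and 65.2 CPM in WT, against 51.4 and 43.5 CPM in Itch KO skin, and Tfdp2, an E2F partner, had 54.5 and 43.1 against 33.6 and 27.1 CPM. In a list of 11 genes of CDKs, their cyclins and other CDK regulators, both knockouts were above both WT libraries for 1 and below for 2. In the E2F, Rb and MuvB list they were above for 7 of 20 genes and below for 4. Over all tested genes, 31.2% were above and 30.0% below. The counts of the E2F, Rb and MuvB list are near or under these shares.

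Of the 8 CDK inhibitor genes, 2 had both knockouts above both WT libraries and 2 had both below, close to the shares over all tested genes (31.2% and 30.0%). Cdkn2c, p18 of the INK4 family, had 134.7 and 84.9 CPM in WT, against 49.5 and 51.0 CPM in Itch KO skin (log2 fold change -1.13, SE 0.27; DESeq2 adjusted p = 0.00709, edgeR quasi-likelihood with Benjamini-Hochberg adjustment 0.131). Cdkn1c, p57, had 16.6 and 8.33 CPM in WT, against 38.2 and 26.3 CPM in Itch KO skin (log2 fold change 1.37, SE 0.43; DESeq2 adjusted p = 0.0361, edgeR quasi-likelihood with Benjamini-Hochberg adjustment 0.178). These genes changed past the threshold in DESeq2 and not in edgeR. Cdkn1a, p21, had 409.7 and 422.4 CPM in WT, against 461 and 441.7 CPM in Itch KO skin, a log2 fold change of 0.12 (SE 0.16). Cdkn1b, p27, had 123 and 95.8 CPM in WT, against 88.6 and 82.3 CPM in Itch KO skin. The p21 gene was thus nearly level over the 4 libraries, and p27 was highest in WT replicate 1. Cdkn2a had 0.133 and 4.48 CPM in WT, against 2.15 and 3.57 CPM in Itch KO skin, resting on few counts. Cdkn2b, Cdkn2d and Cdkn3 had overlapping groups, with log2 fold changes of -0.32, 0.20 and 0.52.

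Long genes tended to have lower knockout levels relative to WT than short genes, and also lower levels in WT replicate 2 relative to WT replicate 1. Across the 44 genes, the log2 fold change had a Pearson r of -0.45 and a Spearman rho of -0.43 with log2 exon length, and across the 22 mitotic genes these were -0.59 and -0.55. Over 60 other mitotic genes they were -0.49 and -0.54, and over 16501 tested genes with a length -0.18 and -0.23. For WT replicate 2 over WT replicate 1, r and rho were -0.28 and -0.23 across the 44 genes and -0.37 and -0.28 across the 22 mitotic genes. They were -0.04 and -0.02 for the replication genes, -0.21 and -0.25 for the other mitotic genes and -0.16 and -0.18 over all tested genes. These are correlations across genes of the same 4 libraries, and genes are not independent. Cenpf has 15433 exon bases, the most of the 44 genes, and had the lowest fold change, while Ccne1, with 2662, had the highest. Single genes departed from this order: Ccnb2, with 1531 bases, had a log2 fold change of 0.32, and Mcm10, with 7692, had 1.23. The median exon length was 4546 bases for replication genes and 4346 for mitotic genes. The difference between the phases was present in both length classes split at 4390 bases. In the 8 replication and 12 mitotic genes below that length it was -0.02 and -0.02 in WT, against 0.39 and 0.45 in Itch KO skin. In the 10 replication and 10 mitotic genes above it, the difference was -1.27 and -1.13 in WT, against -0.78 and -0.67 in Itch KO skin. The part of exon length in the difference between the phases was not tested.

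**Figure D4:**
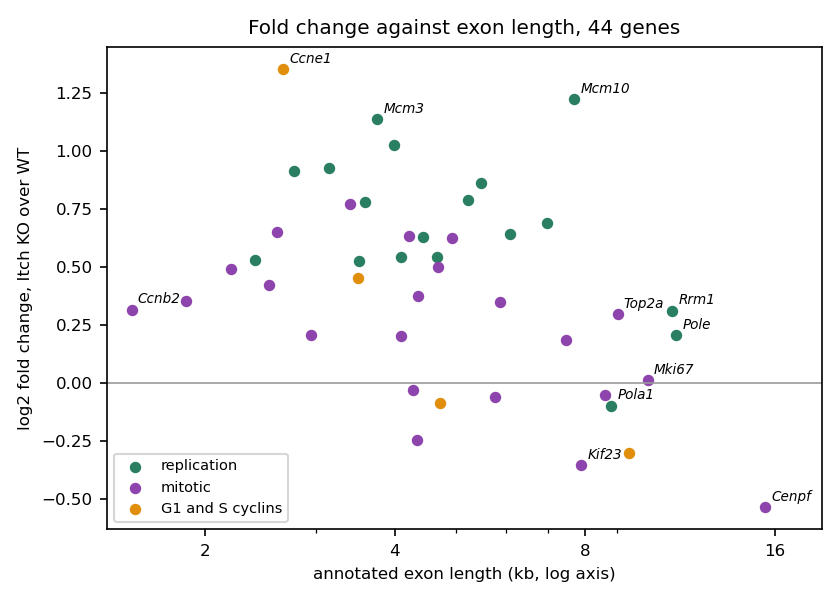
Log2 fold change of each of the 44 genes, Itch KO over WT, against annotated exon length in kilobases on a log axis, coloured by group. Longer genes lie lower (Pearson r -0.45), with Cenpf, 15433 exon bases, lowest at -0.53. The log2 difference of WT replicate 2 over WT replicate 1, which is not drawn, had a Pearson r of -0.28 with length.

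Markers of other skin compartments differed between the libraries along with the cell cycle genes. The anagen hair matrix list, 12 genes including the matrix factors Msx2 and Hoxc13, summed to 219 and 6312 CPM in WT, against 4351 and 6901 CPM in Itch KO skin. WT replicate 1 was lowest for 12 of 12. Outside WT replicate 1, most of the sum came from the keratin genes Krt25, Krt27 and Krt71, at 1613, 1082 and 2608 CPM in WT replicate 2. Msx2 and Hoxc13 stood at 65.7 and 90.8 CPM in that library. Between the WT libraries the 12 genes differed from 1.475-fold (Trps1) to 275.2-fold (Krt27). The hair shaft list summed to 8.53 and 1326 CPM in WT, against 3092 and 2324 CPM in Itch KO skin, with WT replicate 1 again lowest for 12 of 12. Both knockouts were above both WT libraries for 12 of 12 hair shaft genes and for 1 of 12 hair matrix genes (background 31.2%). The basal keratinocyte list, 12 genes including Krt5 and Krt14, summed to 10920 and 8609 CPM in WT, against 8927 and 9218 CPM in Itch KO skin, and WT replicate 1 was lowest for 2 of 12. WT replicate 1 thus had the lowest sum for both hair follicle lists and the highest for the basal list, although Krt14 and Itga3 of the basal list were lowest there. Lists outside the follicle also had their lowest sum in WT replicate 1, among them wound keratinocyte, fibroblast, macrophage and neutrophil. That library was lowest for 8 of 8 wound keratinocyte and 8 of 10 fibroblast genes. Beside each of these counts, WT replicate 1 was lowest for 34.1% of all tested genes. Skeletal muscle markers summed to 15450 and 2636 CPM in WT, against 1242 and 1044 CPM in Itch KO skin. Leaving these 10 muscle genes out of the library size gave medians of 0.62 for replication and 0.26 for mitotic genes. The part of the hair follicle markers in the cell cycle levels was not tested.

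Macrophage, neutrophil, fibroblast and wound keratinocyte lists separated the genotypes, as the hair shaft list did, and the T cell list did so in part. Both knockouts were above both WT libraries for 15 of 15 macrophage and monocyte genes, which summed to 551.2 and 686.5 CPM in WT, against 4509 and 3364 CPM in Itch KO skin. The same held for 10 of 10 fibroblast genes (2523 and 3996 against 16280 and 14300 CPM) and 8 of 8 wound keratinocyte genes (813.5 and 2498 against 8469 and 8736 CPM). Neutrophil markers summed to 37.1 and 54.4 CPM in WT, against 2157 and 965.2 CPM in Itch KO skin, with Ly6g and Ngp at 0 in WT replicate 1. Both knockouts were above both WT libraries for 8 of 8 tested neutrophil genes. S100a8 and S100a9 stand on both the neutrophil and the wound keratinocyte lists, and they made up most of the neutrophil sum in the knockouts, at 608.9 and 265.5 CPM for S100a8 and 1049 and 447.3 CPM for S100a9. T cell markers summed to 95.7 and 76.1 CPM in WT, against 126.1 and 108.7 CPM in Itch KO skin. Both knockouts exceeded both WT libraries for 8 of 12 T cell markers and for 4 of 10 B and plasma cell markers, of which 7 were tested. The share over all tested genes, beside each of these marker counts, was 31.2%. Differentiated keratinocyte markers summed to 13610 and 14850 CPM in WT, against 9215 and 10840 CPM in Itch KO skin, and adipocyte markers to 4190 and 2279 against 2918 and 3022 CPM. B and plasma cell, endothelial and erythroid markers summed to at most 850, 515.2 and 681.9 CPM in any library. The part of these cell types in the levels of the 44 genes, or in the difference between the phases, was not tested.

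**Figure D5:**
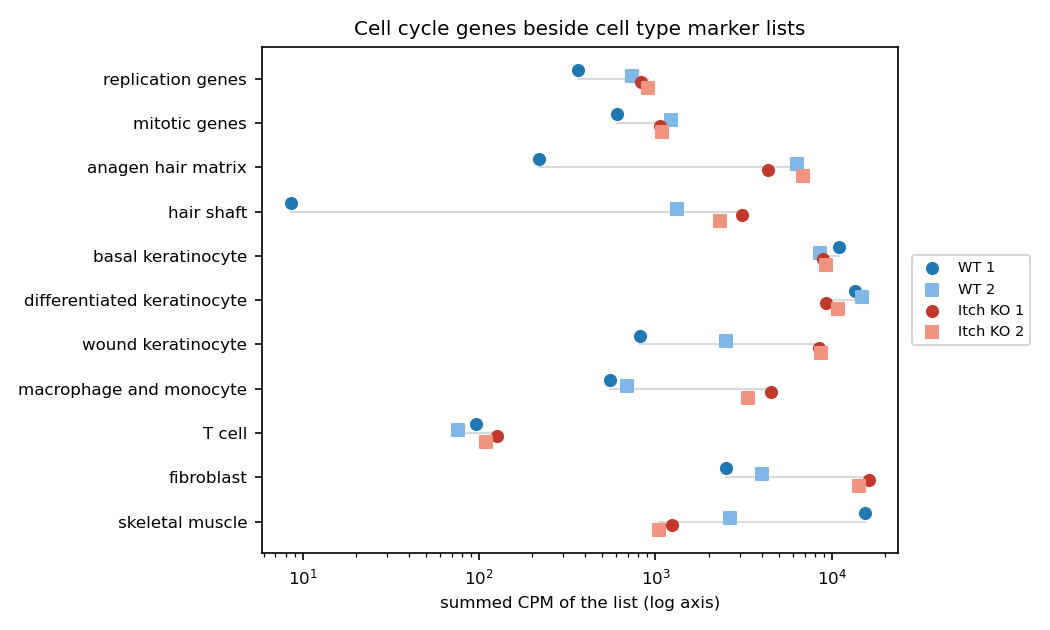
Summed CPM on a log axis of the replication and mitotic genes and of marker lists of skin compartments in each library. The hair matrix and hair shaft lists are lowest in WT replicate 1, at 219 and 8.53 CPM, as both cell cycle groups are. The macrophage, fibroblast and wound keratinocyte lists are also lowest there. The macrophage, fibroblast, wound keratinocyte, hair shaft and T cell lists and the replication genes are higher in both knockouts than in both WT libraries.

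Per kilobase of exon, the levels of the 44 genes spanned from 1.08 to 27.6 CPM per kb as means over the 4 libraries. Ccnb2 was highest at 27.6 CPM per kb (16.3 to 32.8 over libraries), followed by Ccnd2 at 21.1 (17.0 to 24.6) and Rrm2 at 19.02 (8.37 to 26.7). The ranges of these 3 neighbours overlapped, so their order is within the spread between libraries. Mcm10, Cdc6 and Pole were lowest, at 1.53, 1.29 and 1.08 CPM per kb, and Pole ranged from 0.717 to 1.29. Of the catalytic and regulatory subunits of ribonucleotide reductase, Rrm2 had the higher mean per kilobase, and Rrm1 had 10.9 CPM per kb (7.37 to 12.5), a range that overlapped with that of Rrm2.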

How the data were processed

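RNA from 4 mouse skin libraries was analysed, grouped and numbered by the sample labels. The authors deposited 1 file of raw counts by Ensembl gene for each library. The submitters' processing notes name HTSeq 0.6.1, SAMtools 0.1.19, TopHat2 and CASAVA 1.8.2, and the mm10 build. For the strand setting and annotation release, no source used here gives a value. The 5 special lines of each file stayed out of library sizes; reads without a feature were 5.68% to 7.45% and ambiguous reads 4.48% to 4.70%. A count of 0 allows up to 0.187 to 0.198 CPM at a floor of 3 counts, counting error only.

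Symbols, GRCm38 coordinates and exon lengths came from GENCODE vM21, which named 37607 of 39179 identifiers. The test was run with edgeR 4.0.16 (R 4.3.3): filterByExpr (minimum count 10, 16651 genes kept), TMM scaling, the two-sided quasi-likelihood F test (legacy, robust) and Benjamini-Hochberg adjustment over all tested genes at 0.05. CPM used library sizes after TMM scaling, and group means used log2(CPM + 1). The biological coefficient of variation was 0.341. Counts of replicates differed beyond sampling noise (chi-square per degree of freedom 117 in WT and 24.9 in the knockouts). The procedure was tested on simulated counts. Alternatives were RLE size factors, no filter, DESeq2 1.42.0, voom in limma 3.58.1, the replicate number as a block, leaving out each library and, added after seeing the data, leaving out X and Y genes or muscle genes. The 44 genes and the other lists were chosen with earlier results of these data known. Every listed gene could be named; of each further list of cell cycle genes the 3 with the smallest p were named, with all CDK inhibitors. Ddx3y, Eif2s3y, Xist, Msx2, Hoxc13, Krt25, Krt27, Krt71, Trps1, Krt5, Krt14, Itga3, S100a8 and S100a9 were added to describe their lists. Promoter windows came from RefSeq on GRCm38.p6.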

Additional observations from a re-analysis of the deposited data

How the results depend on the processing

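The genotype fold changes of the cell cycle genes depended most on which WT library was kept, and the order of the phases held in every setting tried. Leaving out each library in turn, the number of the 44 genes called ranged from 0 to 33, and the number over all tested genes from 0 to 5249, against 1 with all libraries. The median log2 fold change ranged from 0.22 to 1.34 for replication genes, from -0.15 to 0.93 for mitotic genes, and from -0.50 to -0.27 for mitotic minus replication. Of the 143 other cell cycle genes, 0 to 70 were called. Over all tested genes, 488 were called with no filter on low counts, 2329 by DESeq2, 0 by limma-voom and 0 without X and Y genes. DESeq2 called 5 of the 143 other genes. None of the planned or added settings that kept all 4 libraries called any of the 44. The cause of these differences was not tested.

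The libraries were not treated as paired by replicate number, for which the labels give no shared source. Across genes, the deviations of same-numbered libraries from their group means correlated at 0.186. With 2 libraries a group, both replicate numbers must give the same value, so it cannot show whether the libraries are paired. With the replicate number as a block, 0 genes were called over all tested genes and 0 of the 44, and the medians were 0.78 for replication and 0.40 for mitotic genes.

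Single fold changes, none of them called with all 4 libraries, changed sign with a library left out. Their ranges were -0.15 to 0.69 for Pole, -0.37 to 0.24 for Pola1, -0.27 to 0.90 for Ccna2, -0.10 to 0.90 for Ccnb2, -0.15 to 0.95 for Top2a, -0.41 to 0.61 for Mki67, -0.29 to 0.97 for Aurkb and -0.005 to 1.254 for Plk1. They were -0.13 to 1.16 for Bub1, -0.43 to 0.52 for Bub1b, -0.15 to 1.12 for Cenpa, -0.45 to 0.50 for Cenpe, -0.27 to 0.86 for Kif11, -0.477 to 0.028 for Kif20a, -0.078 to 0.972 for Cdc20, -0.39 to 0.37 for Foxm1, -0.54 to 0.57 for Ccnd1 and -0.65 to 4.34 for Cdkn2a. Bub1b, Cenpe and Ccnd1 also changed sign in limma-voom (0.041, 0.014 and 0.012) and with the replicate block (0.046, 0.019 and 0.014), and Mki67 did without muscle genes in the library size (-0.037).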
